A study of Mus musculus with 6 samples.

Results

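Lysosome genes code for the digestive compartment of the cell: its proteases, the enzymes that split sugars and lipids, its membrane proteins, the proton pump that acidifies it, and the factors that switch these genes on. The 34 genes described here were taken from a named list, matched by symbol to the 21631 protein-coding RefSeq genes on chromosomes 1 to 19 and X, and all 34 were found. Open chromatin at these genes was read from ATAC-seq peaks, the stretches of DNA that a transposase can reach. The cells were adherent macrophages (F4/80+ CD169+) expanded in culture from crushed bones of wild-type BALB/c mice, either young (3 weeks) or old (given as over 78 weeks). There were 3 libraries per age, each from 50000 cells, and the labels leave unsaid whether replicates of an age came from separate mice. The p-values below therefore reflect how far these libraries scatter, whatever the source of that scatter, technical or not. Values of single libraries are listed in the order of replicates 1, 2 and 3. No transgene, deletion or treatment is given for either age.

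Lysosomes take in material by phagocytosis, endocytosis and autophagy, and macrophages, which clear dead cells and debris, depend on them heavily. Their genes are switched on together by TFEB and TFE3, relatives of MITF that bind a palindromic E-box known as the CLEAR element. In macrophages PU.1 and AP-1 factors also act at many enhancers and promoters. Cathepsins, besides digesting proteins, cut antigens and the MHC class II invariant chain.

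The starts of the lysosome genes are shown first, because the CLEAR letters in them are what the regulators of the pathway read. RefSeq promoter windows of GRCm38.p6, whose primary chromosomes are those of mm10, ran from 250 bases before to 50 bases after an annotated start and were matched for 29 of the 34 genes (all but Ctsb, Ctsh, Npc1, Asah1 and Atp6v1h). Each window was searched on both strands for the E-box core CACGTG, the CLEAR core TCACGTGA, the AP-1 site TGANTCA and the PU.1 site GAGGAAGT. Every CLEAR core also contains an E-box core, so those counts overlap. A CLEAR core stood in 6 of the 29 (20.7%): Ctsa, Ctsd, Mcoln1, Atp6v0d1, Atp6v1a and Clcn7. Among all 17274 genes with a window the share was 1.42%. An E-box core stood in 11 of 29 (37.9%; 9.02% of all genes), an AP-1 site in 4 (13.8%; 8.19%) and a PU.1 site in 3 (10.3%; 3.66%), namely Ctsc, Ctss and Gusb. These matches describe letters, not binding. In the later comparison of whole loci with all deposited peaks counted, Ctsc and Ctss had the smallest p of the cathepsins. The 9 stretches below carry the CLEAR genes, Lamp1 with its row of 4 E-boxes, and the PU.1 sites of Ctsc and Ctss. They run 5′ to 3′ on the strand of the gene and end 20 bases into the transcript; capitals mark E-box cores, extended to the whole CLEAR core where it is present, and in Ctsc and Ctss the PU.1 site, which reads as its reverse complement.
Ctsa (chr2:164833623-164833792, plus strand): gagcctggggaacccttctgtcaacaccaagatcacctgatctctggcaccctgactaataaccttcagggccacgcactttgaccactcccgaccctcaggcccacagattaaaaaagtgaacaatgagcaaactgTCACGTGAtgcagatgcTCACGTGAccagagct
Ctsd (chr7:142387808-142387977, minus strand): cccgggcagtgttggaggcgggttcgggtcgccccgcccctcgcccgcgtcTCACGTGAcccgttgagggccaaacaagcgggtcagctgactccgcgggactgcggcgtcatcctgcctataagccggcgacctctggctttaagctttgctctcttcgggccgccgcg
Mcoln1 (chr8:3500369-3500538, plus strand): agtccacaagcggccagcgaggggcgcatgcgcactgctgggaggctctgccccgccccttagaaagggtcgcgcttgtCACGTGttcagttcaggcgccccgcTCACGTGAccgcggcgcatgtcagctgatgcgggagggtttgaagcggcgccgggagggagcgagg
Atp6v0d1 (chr8:105566045-105566214, minus strand): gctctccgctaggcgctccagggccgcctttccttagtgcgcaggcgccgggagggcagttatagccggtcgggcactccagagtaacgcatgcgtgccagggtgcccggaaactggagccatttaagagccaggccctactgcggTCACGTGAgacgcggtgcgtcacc
Atp6v1a (chr16:44139240-44139409, minus strand): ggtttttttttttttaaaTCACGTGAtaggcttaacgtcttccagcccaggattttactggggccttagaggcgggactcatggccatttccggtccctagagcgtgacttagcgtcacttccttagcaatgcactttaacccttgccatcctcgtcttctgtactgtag
Clcn7 (chr17:25133241-25133410, plus strand): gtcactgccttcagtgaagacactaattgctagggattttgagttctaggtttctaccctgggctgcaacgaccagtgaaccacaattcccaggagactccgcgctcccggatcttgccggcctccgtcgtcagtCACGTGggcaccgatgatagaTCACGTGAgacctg
Lamp1 (chr8:13159011-13159180, plus strand): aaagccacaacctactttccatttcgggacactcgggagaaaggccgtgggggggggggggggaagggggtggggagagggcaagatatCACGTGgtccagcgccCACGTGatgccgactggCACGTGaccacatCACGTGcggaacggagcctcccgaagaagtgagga
Ctsc (chr7:88277915-88278104, plus strand): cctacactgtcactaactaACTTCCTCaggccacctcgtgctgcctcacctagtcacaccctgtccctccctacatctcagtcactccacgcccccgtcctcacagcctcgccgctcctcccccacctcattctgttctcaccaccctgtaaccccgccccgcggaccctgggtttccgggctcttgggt
Ctss (chr3:95526636-95526805, plus strand): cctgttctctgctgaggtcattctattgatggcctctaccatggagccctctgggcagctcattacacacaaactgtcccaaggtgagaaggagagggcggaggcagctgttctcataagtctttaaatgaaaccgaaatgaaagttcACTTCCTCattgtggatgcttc

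All of these motifs lay in open chromatin at both ages. Each of the 7 CLEAR cores, 18 E-box cores, 4 AP-1 sites and 3 PU.1 sites in the lysosome windows was covered by a peak in all 6 libraries. A peak touched at least 1 window of each of the 29 genes in every library, against 60.0% of all genes with a window, and 12 (41.4%) had a window that was covered from end to end in all 6, against 28.5%. The CLEAR cores of Atp6v0d1, Ctsa and Clcn7 sat within 13 bases of the start, and those of Mcoln1, Ctsd and Atp6v1a began 46, 99 and 132 bases before it. In Ctsa there were 2 such cores, beginning 13 bases before and 4 bases after the start. The peak at the Clcn7 start reached less far upstream in old libraries. It covered 252, 253 and 240 of the 300 bp in young libraries and 161, 155 and 160 bp in old ones, while both E-boxes stayed inside the peak (a feature singled out after its values were seen, so without a test).

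**Figure D1:**
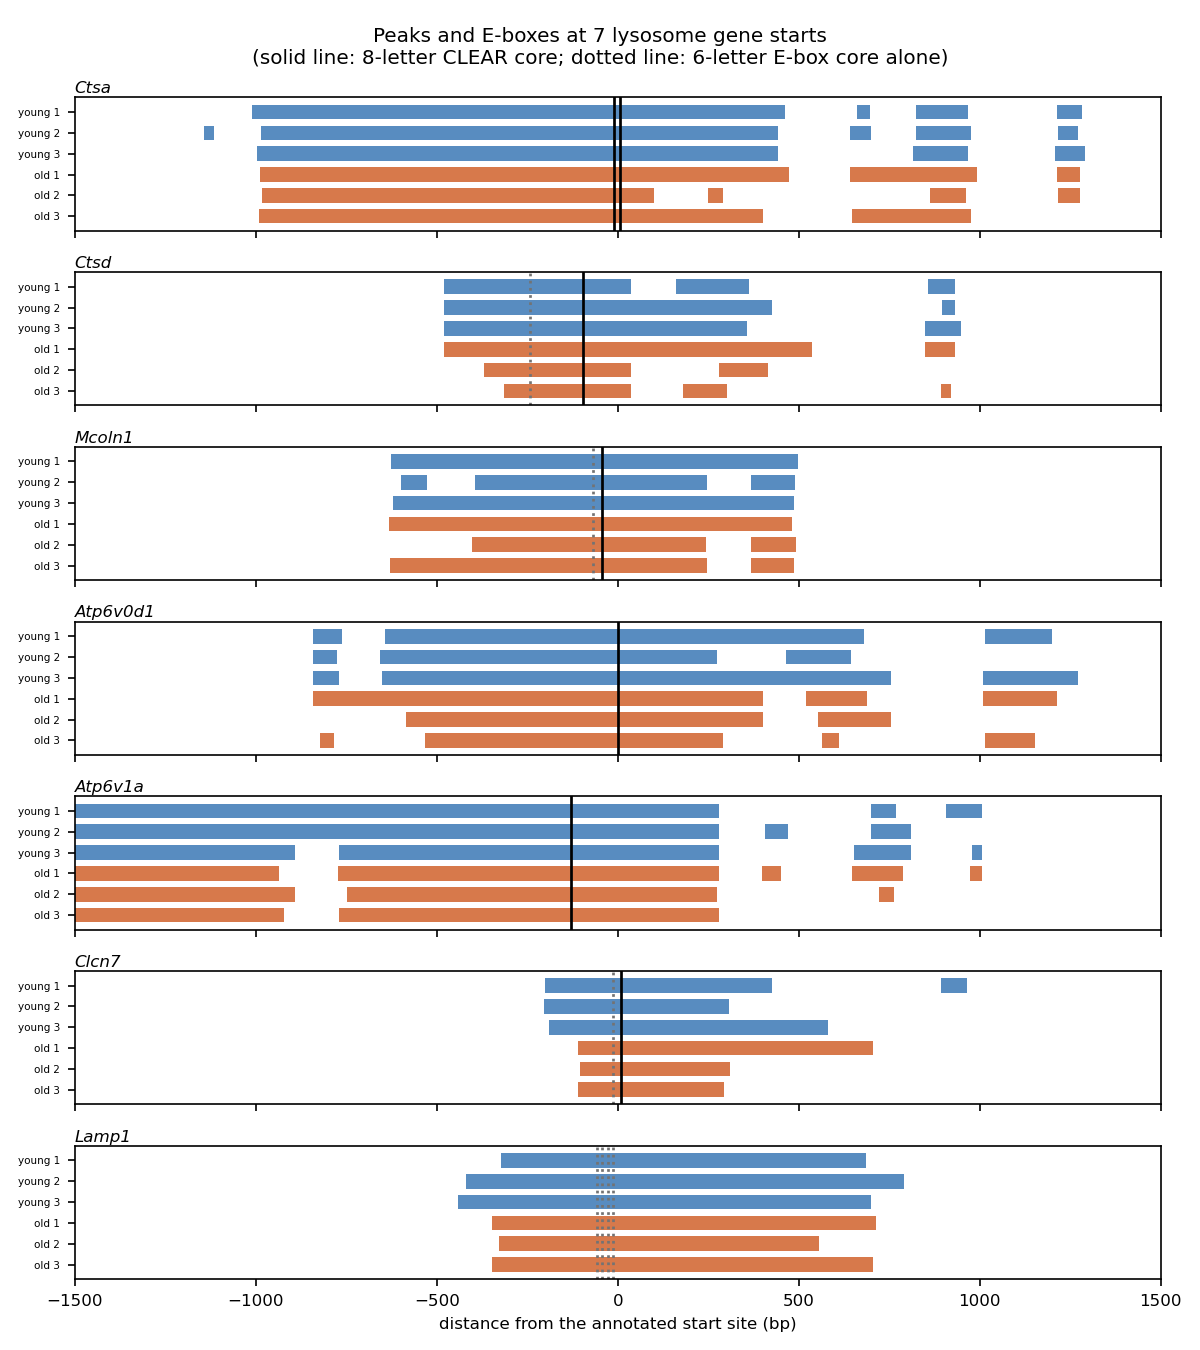
Peaks of each library (bars; blue young, orange old) at 7 lysosome gene starts, with the distance from the annotated start in bp on the x axis and the libraries on the y axis. Vertical lines mark E-boxes, and each of them lies inside a peak in all 6 libraries.

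Nearly all lysosome genes had an open region at 1 end or both. Within 1 kb of either end of the gene, all 34 lysosome genes had a peak in every young library and in old replicate 1, and 33 had one in old replicates 2 and 3 (mean difference -0.667 genes; two-sided exact permutation test, p = 0.40, where 3 against 3 libraries cannot go below 0.10). Over all protein-coding genes the share was 69.8% to 72.1%. The gene without such a peak in old replicates 2 and 3 was Asah1. It has no promoter window, so which of its ends, if any, holds the start was not read. Among the 50000 strongest peaks of a library, ranked by −log10 q (the negative log10 of the false-discovery-adjusted p that the peak caller gave), 32 of the 34 had a gene-end peak in every library, and the share over all genes was 51.5% to 52.6%. Asah1 and Ctss were the pair without one. The best gene-end peak of a lysosome gene stood at a median rank of 4.50% to 6.68% from the top of its library's list, against 6.69% to 7.92% for all genes with a gene-end peak. Npc2, which binds cholesterol inside the lysosome, had the strongest peak of the list, at its start, with a −log10 q of 70.6 to 118.

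To compare ages, the length covered by peaks was added up over each gene and 10 kb on each side, in base pairs, and scaled so that all libraries had the same sum over all loci. The test was limma on log2(bp + 200), old minus young, over all loci whose mean reached 500 bp, with Benjamini-Hochberg adjustment. Of the 16952 loci tested, 0.962% passed an adjusted p under 0.05 and 12.8% an unadjusted p under 0.05. The same fit was made on the 50000 strongest peaks per library (14395 loci, 1.28% and 14.8%) and, with a minimum of 200 bp, on the 1 kb around gene ends (13850 genes, 0% and 8.77%; there 0 genes passed by limma and 1215 had an unadjusted p under 0.05). Values of log2 change understate changes of sparsely covered loci. Of the 34 member loci 26 hold another gene as well (8 do not), so a peak there need not belong to the lysosome gene.

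None of the 34 lysosome loci passed the adjusted threshold in any of the 3 fits, and their values leaned slightly upward in old libraries when all deposited peaks were counted. Counting all deposited peaks, 24 were higher and 10 lower in old (70.6% higher, against 52.1% of all loci), with a median log2 change of 0.05 beside 0.0072 for all loci. Of these, 4 were higher and 2 lower at an unadjusted p under 0.05 (limma), and the 3 old values lay wholly above the young ones at 3 loci and wholly below at 3, where 17% of all loci did not overlap. On the strongest peaks 17 were higher and 17 lower (49.6% of all loci were higher; median 0.0048 beside -0.0021), 3 and 4 of them at an unadjusted p under 0.05 (limma), and 5 lay above and 4 below without overlap (20.3% of all loci). At the gene ends 33 could be tested, Asah1 being under the minimum. There 21 were higher and 12 lower (63.6% against 53.5%; median 0.04 beside 0.01), 4 and 1 at an unadjusted p under 0.05 (limma), and 4 lay above and 2 below without overlap (13.4% of all genes). The smallest adjusted p in the 3 fits was 0.08 for Ctsc, 0.193 for Ctsd and 0.166 for Ctsl. The upward lean is relative to the library sum: without scaling the median of the lysosome loci on the deposited lists was -0.11 and that of all loci -0.14.

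**Figure D2:**
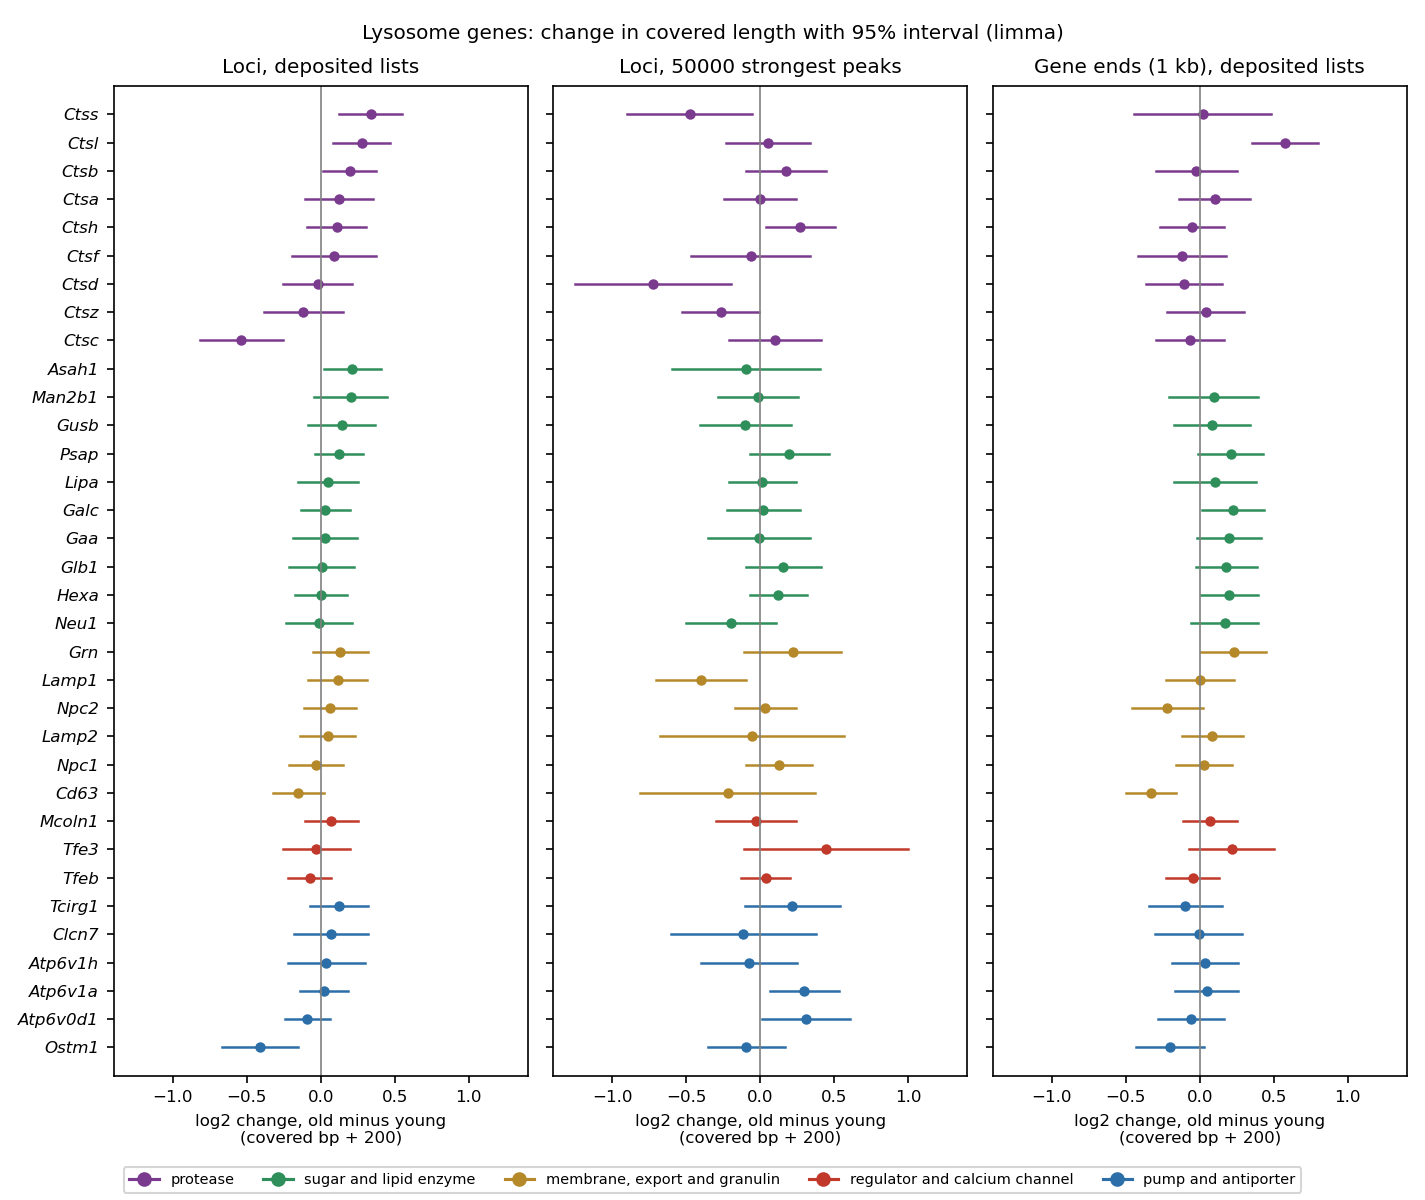
Log2 change (old minus young) of the covered length of the 34 lysosome genes with its 95% interval in the 3 limma fits, coloured by role; n = 3 libraries per age. Ctsc and Ostm1 lie lowest and Ctss highest on the deposited lists, while on the strongest peaks Ctsd lies lowest and Ctss is below 0.

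On the deposited lists the proteases held the largest differences of the 34 genes in both directions. Of the 9, 6 were higher and 3 lower in old, with log2 changes from -0.54 to 0.34 (median 0.11). Ctsc codes for cathepsin C, the dipeptidyl peptidase that activates the serine proteases of granules (chromosome 7, 88278024 to 88315861, with no other gene in its locus). It was covered over 4683, 4236 and 4852 bp in young libraries and 3770, 3269 and 2391 bp in old ones. Every old library was lower than every young library. The log2 change was -0.54 (SE 0.13, 95% interval -0.82 to -0.26), with an unadjusted p of 0.00117 and an adjusted p of 0.08 (limma). The adjusted p was 0.00903 (limma) without old replicate 1 (log2 change -0.67), the old library closest to the young ones. That fit called 352 of all loci, against 163 with all 6 libraries. With any other single library left out, no lysosome locus passed.

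The lower coverage of Ctsc lay in weak peaks inside the gene and downstream of it, not at its start. Peaks in the gene body, more than 1 kb from either end, covered 1907, 1020 and 1729 bp in young libraries (mean 1552 bp). In old libraries they covered 1063, 566 and 587 bp (mean 739 bp), and old replicate 1 lay above young replicate 2. Peaks in the flanks covered means of 1980 bp in young libraries and 1398 bp in old ones. Gene-end peaks covered 1059 and 1007 bp, and the start peak (88277294 to 88278509) was present in all 6 libraries with a −log10 q of 15.8 to 32.9. Counting only peaks with a −log10 q of 5 or more, the log2 change was 0.01 (SE 0.17), and on the 50000 strongest peaks 0.10 (SE 0.14; -0.25 with 100000 peaks). A peak in the gene body, 28947 bp downstream of the 5′-side end of the gene (88306806 to 88307137), went the other way: it ranked among the strongest in each old library and in no young library, with a −log10 q of 4.69, 3.75 and 7.12 in young and 9.77, 5.87 and 7.10 in old ones. The last peak admitted to the strongest lists had a −log10 q of 8.86, 6.71 and 9.96 in young and 9.53, 5.72 and 6.47 in old, so this rank is relative to each library.

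Ctss, the gene of cathepsin S, which trims the invariant chain (chromosome 3, 95526786 to 95556405; Hormad1 shares its locus), was covered over 2855, 3100 and 2400 bp in young and 3277, 3501 and 3920 bp in old ones. All old values lay above all young values. The log2 change was 0.34 (SE 0.10, adjusted p = 0.129, limma). The added length lay in the gene body, with 971, 1139 and 825 bp in young libraries and 1630, 1709 and 2111 bp in old ones, while its gene ends (means 256 and 263 bp) and flanks (1551 and 1486 bp) were close in length. With flanks of 5 kb in place of 10 kb, the change was 0.52 (SE 0.11, adjusted p = 0.0318, limma).

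Among its strong peaks Ctss went the opposite way. On the 50000 strongest peaks it had 2147, 1727 and 1417 bp in young libraries and 1515, 1131 and 987 bp in old ones, and the ages overlapped (change -0.48 on the log2 scale, SE 0.18, unadjusted p = 0.0311, adjusted p = 0.267, limma). Upstream regions at 95517362 to 95517892 and 95521116 to 95521501 ranked among the strongest in each young library but, of the old ones, in replicate 1 alone. The strongest region of the locus in its weakest library (95523480 to 95524161), upstream of the gene, kept that rank in all 6. The start peak itself, which carries the PU.1 letters shown above, was weak at both ages, with a −log10 q of 6.21 to 8.35 in young and 2.80 to 5.45 in old libraries.

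Ctsl, the gene of the endopeptidase cathepsin L (chromosome 13, 64361890 to 64370772, with no other gene in its locus), was covered over 2258, 2496 and 2356 bp in young and 2918, 2979 and 2844 bp in old ones. The groups did not overlap, and the log2 change was 0.28 (SE 0.09, adjusted p = 0.17, limma). At the gene ends it had 1067, 967 and 1270 bp in young libraries and 1636, 1950 and 1624 bp in old ones (change 0.58 on the log2 scale, SE 0.10, unadjusted p = 0.000122, adjusted p = 0.166, limma). Most of the added length lay at the 3′ side of the gene. After scaling, the 3′ side went from a mean of 183 bp in young libraries to 696 bp in old ones, and the start side from 918 to 1041 bp (924, 934 and 897 bp; 949, 1152 and 1022 bp). At the 3′ side a weak region (64360618 to 64361760, −log10 q of 1.21 to 3.74) covered 153, 305 and 607 bp in young libraries and 921, 754 and 549 bp in old ones before scaling. The start peak (64369794 to 64370885) covered 992, 914 and 987 bp in young libraries and 1032, 1001 and 910 bp in old ones, also before scaling. With peaks of a −log10 q of 5 or more the gene-end change of Ctsl was 0.18 (SE 0.12).

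**Figure D3:**
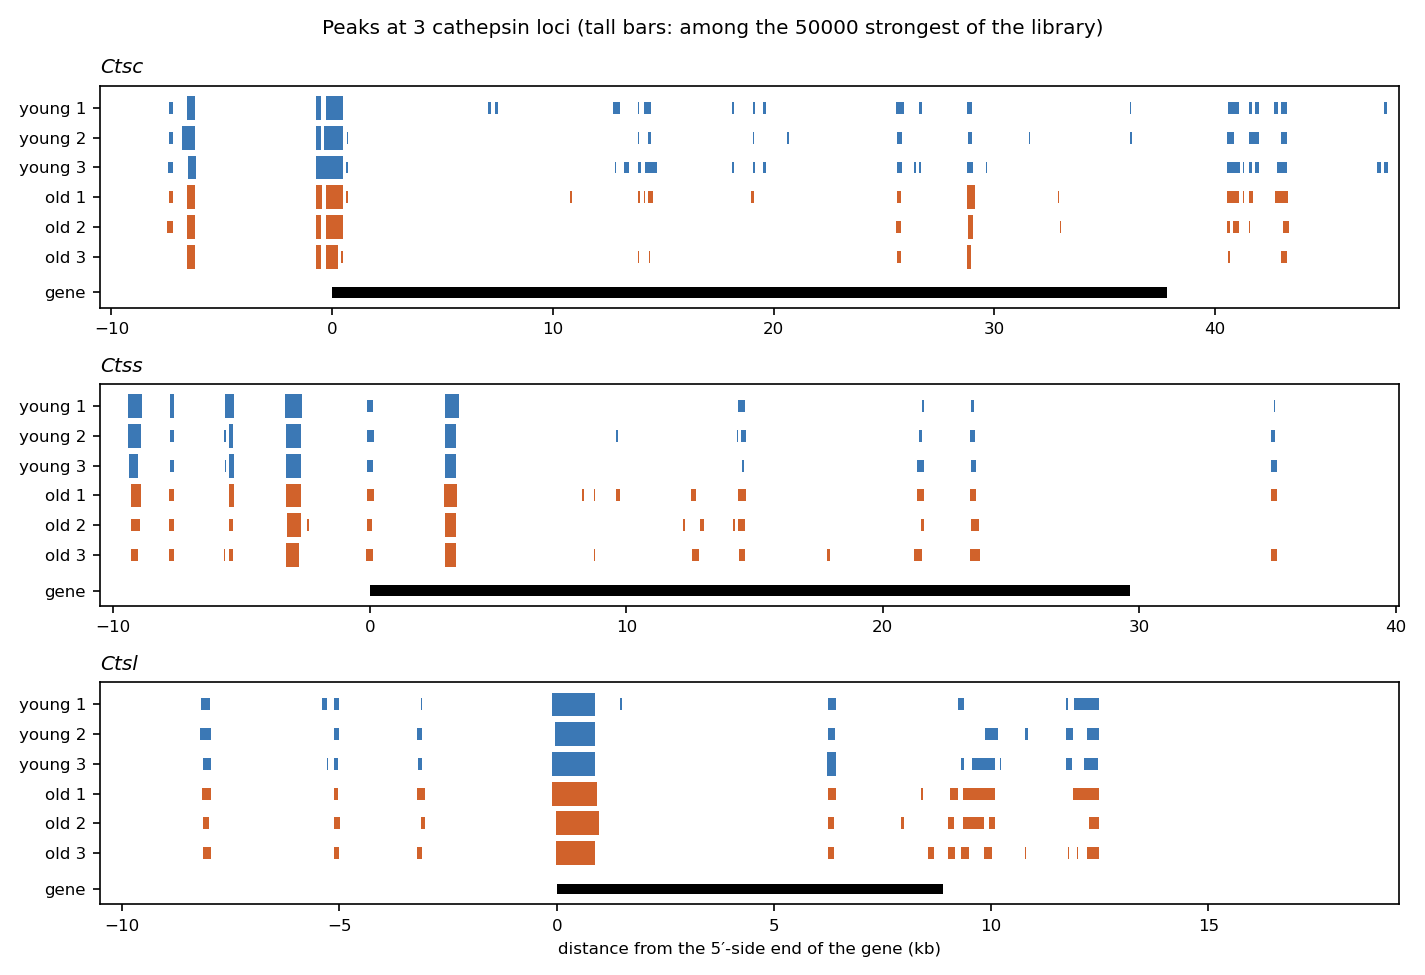
Peaks of each library at the Ctsc, Ctss and Ctsl loci, with the distance from the 5′-side end of the gene in kb on the x axis and the libraries on the y axis (blue young, orange old); tall bars rank among the 50000 strongest peaks. Low bars in the Ctsc gene are fewer in old libraries, those in the Ctss gene are more numerous, and most of the added Ctsl length lies near the 3′ end.

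Ctsb, the gene of the abundant protease cathepsin B (chromosome 14, 63122462 to 63145923; Fdft1 shares its locus), was covered over 4645, 5275 and 4594 bp in young and 5015, 6076 and 5635 bp in old ones. The ages overlapped, and the log2 change was 0.20 (SE 0.09, adjusted p = 0.342, limma). Ctsd, the gene of the aspartic protease cathepsin D (chromosome 7, 142375910 to 142387827), had close means on the deposited lists (2304, 2726 and 2292 bp in young libraries; 2765, 2320 and 2136 bp in old ones; change -0.02 on the log2 scale, SE 0.11). On its strongest peaks it had 1247, 1732 and 1386 bp in young libraries and 1231, 632 and 625 bp in old ones. Old replicates 2 and 3 were far below the young range and old replicate 1 just under it (change -0.72 on the log2 scale, SE 0.23, adjusted p = 0.193, limma). The start peak with the CLEAR core ranked among the strongest in every library.

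Ctsh, which codes for an aminopeptidase (chromosome 9, 90054267 to 90076095), had 2134, 2364 and 2367 bp in young libraries and 2552, 3119 and 2748 bp in old ones on the strongest peaks, without overlap (change 0.27 on the log2 scale, SE 0.10, adjusted p = 0.256, limma). With 25000 peaks in place of 50000 the change of Ctsh was -0.12. On the deposited lists it had 3660, 3747 and 3434 bp in young libraries and 3919, 4455 and 3417 bp in old ones, with overlap (log2 change 0.11). Ctsz, a carboxypeptidase gene (chromosome 2, 174427494 to 174439039), was lower in every old library on the strongest peaks, with 1373, 1434 and 1425 bp in young libraries and 1009, 1175 and 1238 bp in old ones (change -0.27 on the log2 scale, SE 0.11, adjusted p = 0.318, limma). On the deposited lists its values overlapped (2104, 2718 and 2545 bp in young libraries; 1871, 2717 and 2188 bp in old ones; log2 change -0.12). Ctsf had the fewest covered bp of the 34 loci, with 1157, 1191 and 1022 bp in young libraries and 1216, 1180 and 1216 bp in old ones (change 0.09 on the log2 scale, SE 0.14). Ctsa, the gene of the protective protein of the sialidase complex, had a log2 change of 0.12 (SE 0.11).

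**Figure D4:**
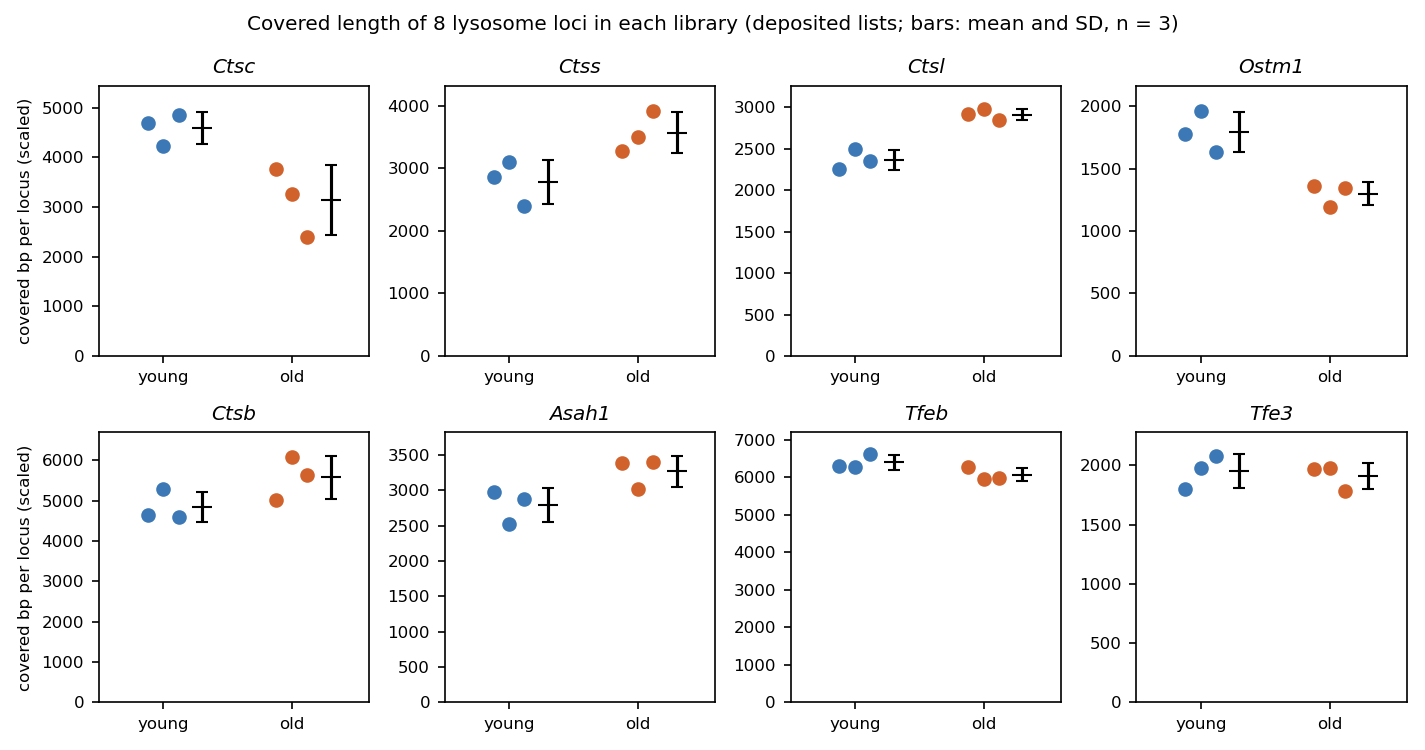
Covered bp of 8 lysosome loci (gene plus 10 kb on each side, deposited lists, scaled) in each library by age; points are libraries, and bars give the mean and SD of 3. The ages do not overlap for Ctsc, Ctss, Ctsl, Ostm1, Asah1 and Tfeb, none of which passed the adjusted threshold.

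The enzymes that split sugars and lipids leaned upward by small amounts on the deposited lists, but not on the strongest peaks. Of the 10, 9 were higher and 1, Neu1, lower in old on the deposited lists, where 52.1% of all loci were higher. The log2 changes ran from -0.01 to 0.21 with a median of 0.04. On the strongest peaks 5 were higher and 5 lower (49.6% of all loci were higher), with a median of 0.0014. Asah1, the gene of acid ceramidase (chromosome 8, 41340646 to 41397644; Pcm1 and Frg1 share its locus), was covered over 2974, 2526 and 2872 bp in young and 3380, 3016 and 3404 bp in old ones. The old values lay just above the young ones (change 0.21 on the log2 scale, SE 0.09, adjusted p = 0.335, limma). Much of the difference came from a flanking region at 41336061 to 41336747, which covered 215, 175 and 352 bp in young libraries and 687, 481 and 450 bp in old ones before scaling. The strongest region of Asah1 lay within the gene (41373804 to 41375308, −log10 q of 32.9 to 49.3) and was strong in all 6. Within 1 kb of the gene ends its peaks covered 251, 164 and 148 bp in young, 196 bp in old replicate 1, and 0 bp in old replicates 2 and 3. Where present, the best of these peaks was weak, with a −log10 q of 1.97 to 4.22. With a window of 2 kb in place of 1 kb, all 34 genes had a gene-end peak in every library.

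At the gene ends all 9 tested sugar and lipid enzymes were higher in old, where 53.5% of all genes were higher. Their log2 changes ran from 0.08 to 0.23 with a median of 0.18, and none passed the adjusted threshold. Galc, the galactosylceramidase gene (chromosome 12, 98202287 to 98259459), had 1061, 956 and 1096 bp in young libraries and 1089, 1331 and 1332 bp in old ones (change 0.23 on the log2 scale, SE 0.10, adjusted p = 0.533, limma). Its ages overlapped by 1 library. Hexa, which codes for the hexosaminidase alpha chain (chromosome 9, 59539540 to 59565109), had 876, 997 and 1000 bp in young libraries and 1078, 1170 and 1133 bp in old ones, without overlap (change 0.20 on the log2 scale, SE 0.09, adjusted p = 0.56, limma). Over the whole locus their means were close (log2 changes 0.03 and 0.002 with SE 0.08 for both). Psap, the gene of the saposins that present lipids to these enzymes, also had old gene-end values above the young ones (697, 759 and 731 bp against 825, 915 and 881 bp). Man2b1, the lysosomal alpha-mannosidase gene (chromosome 8, 85082730 to 85098739; its locus holds 4 other genes), had 1800, 2260 and 1692 bp in young libraries and 2206, 2063 and 2412 bp in old ones over the locus (change 0.20 on the log2 scale, SE 0.12). Lipa, Glb1, Gusb, Gaa and Neu1, which cut cholesteryl esters, galactosides, glucuronides, glycogen and sialic acid, had locus changes from -0.01 to 0.14, all with overlap.

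The membrane, cholesterol export and granulin genes went both ways. Of the 6, 4 were higher and 2 lower on the deposited lists, from -0.15 to 0.13. Cd63, a tetraspanin of late endosomes (chromosome 10, 128896231 to 128912822; Gdf11, Rdh5 and Bloc1s1 share its locus), was lower at the gene ends, with 1460, 1403 and 1514 bp in young libraries and 1118, 1123 and 1122 bp in old ones. The groups lay far apart relative to their spread (change -0.33 on the log2 scale, SE 0.08, unadjusted p = 0.00111, adjusted p = 0.249, limma). Over the locus it had 4568, 4769 and 5017 bp in young libraries and 4626, 4175 and 4082 bp in old ones (change -0.15 on the log2 scale, SE 0.08). The promoter window of Cd63 surrounds a start at 128909345, inside the span and outside the 1 kb gene-end windows. The gene-end values of Cd63 therefore do not include that start. Its window was covered over 229, 218 and 205 bp in young libraries and 207, 169 and 207 bp in old ones before scaling. Grn, the gene of progranulin, had 950, 1107 and 862 bp in young libraries and 1152, 1282 and 1078 bp in old ones at its ends (chromosome 11, 102430507 to 102436809; change 0.23 on the log2 scale, SE 0.10, adjusted p = 0.56, limma). The ages overlapped there, as they did over the locus (3360, 3780 and 3204 bp; 3710, 3991 and 3684 bp; log2 change 0.13). Lamp1, the most used marker protein of the lysosomal membrane (chromosome 8, 13159161 to 13175338), was lower on the strongest peaks, with 1474, 1934 and 1580 bp in young libraries and 1349, 1104 and 1165 bp in old ones (change -0.40 on the log2 scale, SE 0.13, adjusted p = 0.203, limma). The old values lay below the young ones there, but with 100000 peaks in place of 50000 the change was 0.15, and on the deposited lists the log2 change was 0.11 (2429, 2682 and 2676 bp; 2932, 2542 and 3017 bp). Lamp2, Npc1 and Npc2 had locus changes from -0.03 to 0.06 on the deposited lists.

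**Figure D5:**
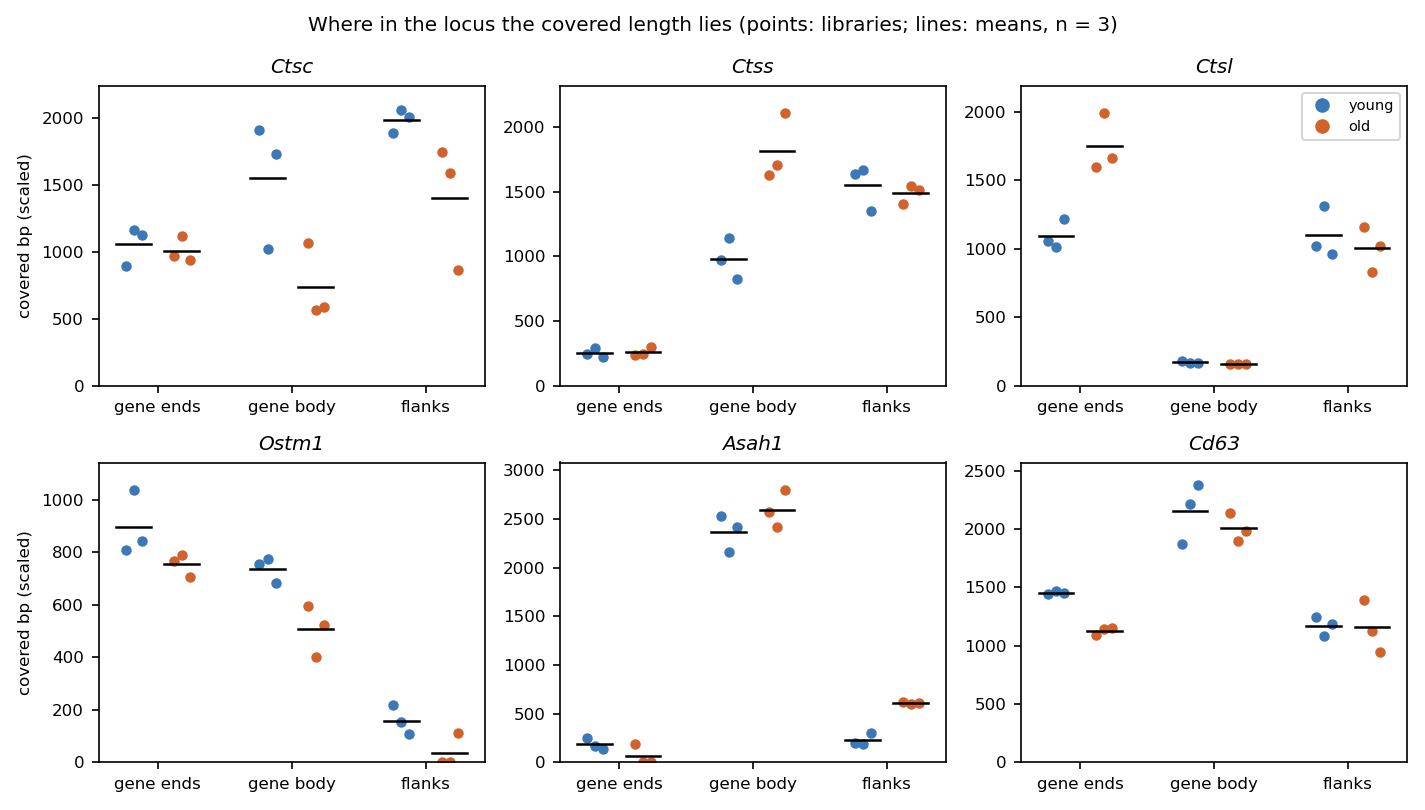
Scaled covered bp in each library at the gene ends (1 kb), in the gene body and in the flanks of 6 lysosome loci (blue young, orange old; lines are means of 3). The means of Ctsc differ in the gene body, where the ages overlap, and in the flanks. Ctss differs in the gene body, and Ctsl and Cd63 differ at the gene ends. Asah1 differs in the flanks, where the mean went from 231 to 609 bp.

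Counting all peaks, the log2 changes of the regulators Tfeb and Tfe3 and of Mcoln1 lay between -0.08 and 0.07. Tfeb, whose product drives the CLEAR genes when it enters the nucleus (chromosome 17, 47737037 to 47792416), was covered over 6299, 6283 and 6628 bp in young and 6267, 5955 and 5978 bp in old ones. The old values lay narrowly below the young ones (change -0.08 on the log2 scale, SE 0.07, 95% interval -0.22 to 0.07, adjusted p = 0.722, limma). Tfeb also held the most regions that ranked among the strongest in all 6 libraries, 8 of them, of which 5 lay in the gene body. Tfe3, its close relative (chromosome X, 7762530 to 7775202), had 1800, 1981 and 2077 bp in young libraries and 1966, 1979 and 1781 bp in old ones (change -0.03 on the log2 scale, SE 0.11, 95% interval -0.26 to 0.20, adjusted p = 0.947, limma). Mcoln1, the gene of the calcium channel TRPML1 (chromosome 8, 3500519 to 3515232), had 3786, 3635 and 3228 bp in young libraries and 3747, 3723 and 3726 bp in old ones (change 0.07 on the log2 scale, SE 0.09). On the strongest peaks Tfe3 had the highest log2 change of the 34 genes, with 610, 813 and 660 bp in young libraries and 830, 1594 and 766 bp in old ones (0.45, SE 0.24, 95% interval -0.11 to 1.00, adjusted p = 0.449, limma). The ages overlapped, and old replicate 2 stood far above the rest. At the gene ends the Tfe3 values were 489, 496 and 544 bp in young libraries and 592, 667 and 613 bp in old ones, higher in every old library (change 0.22 on the log2 scale, SE 0.13, adjusted p = 0.684, limma). Covered length shows how much of a locus is open, not how much TFEB or TFE3 protein is active.

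Of the 6 proton pump and antiporter genes, 4 were higher and 2 lower on the deposited lists. Ostm1, which codes for the beta subunit of the chloride-proton antiporter ClC-7 (chromosome 10, 42678916 to 42702462, with no other gene in its locus), had 1780, 1962 and 1635 bp in young and 1363, 1191 and 1342 bp in old ones. All old libraries were lower (change -0.41 on the log2 scale, SE 0.12, unadjusted p = 0.00358, adjusted p = 0.129, limma). As at Ctsc, the difference lay in weak peaks. Young and old means were 896 and 755 bp at the gene ends, 737 and 507 bp in the gene body and 159 and 37 bp in the flanks, and with peaks of a −log10 q of 5 or more the change was 0.005 (SE 0.18). Its start peak (42678654 to 42679592) was present in all 6 with a −log10 q of 21.3 to 34.5. Clcn7, the gene of the partner of OSTM1, had a log2 change of 0.07 (SE 0.12).

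Of the V-ATPase subunits on the named list, Atp6v0d1, Atp6v1a and Tcirg1 were higher in every old library on the strongest peaks. There 20.3% of all loci did not overlap. Pump genes from a second list, described below, also went the other way. Atp6v1e1 (change -0.53 on the log2 scale, SE 0.13, adjusted p = 0.111, limma) was lower in every old library on those peaks. So was Atp6ap1 (change -0.36 on the log2 scale, SE 0.11, adjusted p = 0.194, limma). Atp6v0d1 (chromosome 8, 105524461 to 105566064), whose product joins the membrane ring to the stalk of the pump, had 2310, 1994 and 2140 bp in young libraries and 3275, 2576 and 2349 bp in old ones (change 0.31 on the log2 scale, SE 0.13, adjusted p = 0.311, limma). Atp6v1a (chromosome 16, 44085402 to 44139702), which codes for the catalytic subunit, had 2505, 2610 and 2347 bp in young libraries and 2729, 3337 and 3274 bp in old ones (change 0.30 on the log2 scale, SE 0.10, adjusted p = 0.216, limma). Both starts carry a CLEAR core. So do those of Ctsa, Ctsd, Mcoln1 and Clcn7, whose log2 changes on the strongest peaks were -0.0031, -0.72, -0.03 and -0.11. Counting all peaks, Atp6v0d1 had 6540, 6797 and 6100 bp in young and 6259, 6054 and 5883 bp in old libraries (log2 change -0.09). Atp6v1a had 5101, 5554 and 4959 bp in young and 5266, 5040 and 5533 bp in old ones (log2 change 0.02). The ages overlapped in both. Tcirg1, the pump subunit needed for acid secretion by osteoclasts (chromosome 19, 3896050 to 3907133; its locus holds 3 other genes), had 3325, 3300 and 3112 bp in young libraries and 3518, 3176 and 4020 bp in old ones (change 0.12 on the log2 scale, SE 0.09) counting all peaks, with overlap. On the strongest peaks Tcirg1 had 2300, 2313 and 1618 bp in young libraries and 2542, 2345 and 2370 bp in old ones, the nearest libraries of the 2 ages being close (change 0.22 on the log2 scale, SE 0.14, adjusted p = 0.53, limma). Atp6v1h, counting all peaks, had 0.04 (SE 0.12). Atp6v0d1 (105543652 to 105545145) and Atp6v1a (44104312 to 44104847) each held a gene-body region that ranked among the strongest in old libraries only. These ranks are relative to each library. Before scaling the Atp6v0d1 region covered 1468, 1220 and 888 bp in young and 1354, 814 and 714 bp in old libraries. The Atp6v1a region covered 427, 408 and 439 bp in young and 450, 404 and 531 bp in old ones. The direction on the strongest peaks hung on how many peaks were kept: with 25000 in place of 50000, Atp6v0d1 had -0.29 and Atp6v1a -0.0044, while Tcirg1 stayed above 0 (0.03).

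Loci differ in length, so density was compared per kb. In young libraries the density ran from 19.2 bp covered per kb at Atp6v1h and 26.6 at Glb1 to 130.8 at Cd63 and 131.1 at Grn, with a median of 74.1. In old libraries Atp6v1h was again lowest (19.7) and Grn highest (144.3), with a median of 71.8. Ctsc went from 79.4 to 54.4 bp per kb, Ctss from 56.1 to 71.9 and Ctsl from 82.1 to 100.9. These are group means of 3 libraries on the deposited lists.

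The single peaks were merged where they overlapped by 1 bp or more, which gave 647 regions at the 34 loci. Of these 259 (40.0%) had a peak in all 6 libraries, against 31.2% of the regions at all gene loci. The share was 53.3% of regions at gene ends, 40.1% in gene bodies and 33.8% in flanks. Regions among the strongest peaks in all 6 libraries numbered 95, of which 42 lay at gene ends, 34 in gene bodies and 19 in flanks, and every lysosome gene had at least 1. For 24 of the 34 genes the strongest region, judged by its weakest library, lay at a gene end. Tfeb with 8, Npc2 with 7, Hexa with 6 and Grn with 5 held the most.

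Regions found in all libraries of one age and none of the other were few and weak. There were 9 in young only (1.39% of the 647, against 1.35% at all gene loci) and 4 in old only (0.618% against 0.469%), with −log10 q from 1.24 to 3.88. The young-only regions lay at Atp6v0d1 (chromosome 8, 105534360 to 105534453), Clcn7 (chromosome 17, 25131188 to 25131408), Gaa (chromosome 11, 119271871 to 119272142), Galc (chromosome 12, 98265129 to 98265345), Hexa (chromosome 9, 59534954 to 59535120 and 59541798 to 59541868), Npc1 (chromosome 18, 12187930 to 12188169 and 12200008 to 12200260) and Npc2 (chromosome 12, 84755445 to 84755576). The old-only regions lay at Clcn7 (25166458 to 25166653), Ctsd (chromosome 7, 142391226 to 142391385), Ctsh (chromosome 9, 90083057 to 90083366) and Lamp1 (chromosome 8, 13161151 to 13161219). The Npc2 region lay within 1 kb of the 3′-side end of the gene, and the other 12 lay in gene bodies or flanks. Among the strongest peaks, 4 regions ranked there in the 3 young libraries alone (at Asah1, Ctsd, Ctsh and Lamp2; 2.61% of 153 against 2.41%) and 5 in the 3 old libraries alone (at Atp6v0d1, Atp6v1a, Ctsc, Ctsh and Lamp2; 3.27% against 2.94%). These shares differed by under 1 percentage point from those of all loci.

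Other lysosome genes were read from a second list of 68 symbols, of which 67 matched: further hydrolases, pump subunits, sorting receptors, the Ragulator complex and the other MITF relatives. On the deposited lists 32 were higher and 35 lower in old (median log2 change -0.0082). The adjusted threshold was passed by 0 of them (limma), against 0.962% of all loci. At an unadjusted p under 0.05 (limma) 1 was higher and 5 lower there, where 12.8% of all loci reached that p. On the strongest peaks 19 were higher and 48 lower (28.4% higher, against 49.6% of all loci), with a median of -0.08 beside -0.0021. Of the 67, 1 passed the adjusted threshold (limma), where 1.28% of all loci did. At an unadjusted p under 0.05 (limma) 1 was higher and 12 lower, where 14.8% of all loci reached that p, and 3 lay above and 14 below without overlap, where 20.3% of all loci did not overlap. The gene that passed was Tfec, a macrophage member of the MITF family, with 1489, 1725 and 1682 bp in young and 980, 758 and 956 bp in old ones. Each old library was far below each young library (change -0.74 on the log2 scale, SE 0.13, adjusted p = 0.0401, limma). Tfec was lower in old under all 12 alternatives but passed under 2 of them. Its adjusted p was 0.0776 to 0.114 with any 1 library left out (limma), and the log2 change was -0.26 with 25000 peaks and -0.17 with 100000. Slc17a5, the sialic acid exporter gene, came next with 3042, 2984 and 2834 bp against 2195, 2038 and 2184 bp (change -0.43 on the log2 scale, SE 0.08, adjusted p = 0.0561, limma). At the gene ends 34 were higher and 32 lower of 66 tested, and 0 passed (limma), with 0% of all genes passing. There 2 were higher and 3 lower at an unadjusted p under 0.05 (limma), which 8.77% of all genes reached.

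The libraries and the cell type bear on these values. The lists held 215947 to 254410 peaks covering 48.2 to 66.1 Mb, with old replicates 2 and 3 the narrowest, and the number of reads behind them is unknown. Of 9 macrophage marker genes 7 had a gene-end peak among the strongest in all 6 libraries (Adgre1, Cd68, Itgam, Fcgr1, Cx3cr1, Spi1 and Mertk). The same held for 3 of 8 osteoclast genes (Ctsk, Atp6v0d2 and Oscar), 3 of 7 stromal, 2 of 6 B-cell, 2 of 6 neutrophil, 2 of 4 erythroid, 1 of 5 T and NK cell and 1 of 5 endothelial genes. The defining genes Cd3g, Lck, Klrb1c, Calcr, Mpo, Emcn and Gata1 had no gene-end peak in any deposited list. Osteoclasts express many lysosome genes, and the summed covered length of the osteoclast markers ran from 22740 to 23886 bp in young and 22651 to 23011 bp in old libraries. The endothelial sum (13647 to 13754 bp in young, 12319 to 13106 bp in old) was the 1 of the 8 marker sums whose ages did not overlap. The sums were not tested, and 17% of single loci did not overlap on the deposited lists. No marker locus passed on the deposited lists, where 0.962% of all loci did. Mertk alone passed on the strongest peaks, where 1.28% of all loci did. The part of other cell types in the lysosome values was not tested, and in bulk libraries fewer cells with an open site and less opening per cell cannot be told apart.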

How the data were processed

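ATAC-seq peak lists of 3 young and 3 old libraries were used. Per the labels, Omni-ATAC was run on 50000 cells per library with paired-end reads of 125 bp. The build is mm10, and the tools listed are MACS2 2.1.0.20140616, Bowtie2 2.2.6, cutadapt 1.14, Trim Galore 0.4.4, Picard and SAMtools, per the submitters' processing notes. The handling of duplicates, transposase shift and blacklisted regions is not given in the sources used here. For each library the authors deposited 1 broad peak list, with a score, a fold enrichment (a ratio over local background) and −log10 p and −log10 q per peak. These are the authors' values and were used for ranking and filtering inside a single list only. Read depth is unknown, and a missing peak means only that none was called.

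Gene spans came from RefSeq (GRCm38.p6) without exons or UTRs; strand came from the promoter windows. Covered bp per locus were fitted with limma 3.58.1 (trend, robust) in R 4.3.3. Counts, overlaps and motifs used pandas 2.3.3, numpy 2.4.6 and scipy 1.17.1 under Python 3.11.15, and figures matplotlib 3.10.9. The fits were tested on simulated data. Per-library values are printed for Tfeb and Tfe3, members at an unadjusted p under 0.05 in a fit, the 2 smallest p of each role, members lacking a gene-end peak, and the loci with the most and fewest covered bp; a few further values were added after they were seen. The members and lists were chosen with earlier results of these data known, and the fits' alternatives are listed in the closing section.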

Additional observations from a re-analysis of the deposited data

How the results depend on the processing

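Directions of the lysosome list hung on scaling and on the number of peaks kept. Without scaling the median log2 change was -0.1052 on the deposited lists, -0.1066 on the strongest peaks and -0.0888 at gene ends, beside -0.1448, -0.111 and -0.1098 for all loci. With 25000 peaks in place of 50000 the strongest-peak median was -0.1085 (29 of 34 tested; 0.0048 for all loci). Leaving out 1 library at a time gave medians from -0.0073 to 0.0473 on the strongest peaks, the highest without young replicate 2. On the deposited lists 1 lysosome gene passed with flanks of 5 kb (Ctss), and leaving out 1 library gave 0 to 1, the 1 being Ctsc without old replicate 1. With the replicate block, 1 lysosome gene passed (Ctsc, adjusted p = 0.0449, limma); same-numbered libraries deviated together at correlations of 0.139, 0.132 and -0.162, not each library with its own number best, so the numbers were not taken as pairs. The block changed no other call among the 34 genes, while Tfec of the second list had an adjusted p of 0.0938 (limma). Over 15 alternatives the change of Ctsc ran from -0.69 to 0.01, that of Ctss from -0.19 to 0.52 and that of Ostm1 from -0.55 to 0.005, each sign change coming with peaks of a −log10 q of 5 or more. Causes were not tested. Calls over all loci went from 163 on the deposited lists to 9 (−log10 q of 5 or more), 15 (no scaling), 60 (total covered length as covariate), 276 (replicate block) and 31 to 352 (leaving out 1 library). On the strongest peaks they went from 184 to 5 (no scaling), 298 (no filter), 0 (replicate block) and 3 to 104 (leaving out 1 library), and at gene ends from 0 to 2 (2 kb window) and 0 to 1 (leaving out 1 library). With an arm of 2 libraries, its spread is estimated jointly with the arm of 3. Unknown depth limits all of these values.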
